A study of Mus musculus with 4 samples.

Results

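The Wnt and Norrin genes of brain endothelium are 10 genes of the pathway that brain vessels use to form and keep the blood-brain barrier. They were found by symbol in the table of normalized counts, and all 10 were present among 24873 listed genes and passed the filter on low values that left 20485 tested genes. The cells were sorted from the cerebrum as CD31+CD45-. The mice carried VE-cadherin cre/ERT2, a tamoxifen-activated Cre recombinase under the VE-cadherin (Cdh5) promoter, together with Mgp fl/fl, in which both Mgp alleles are floxed. Mgp encodes matrix Gla protein, an inhibitor of bone morphogenetic proteins. The 2 control libraries came from mice of this genotype given no tamoxifen. The 2 tamoxifen libraries came from mice injected at 10 weeks of age with 75 mg/kg daily for 5 days and collected on day 9. Cells of 3 mice were pooled for each library, and control mice were littermates. Because the controls received no drug, the effect of tamoxifen itself and that of the loss of Mgp cannot be told apart. The sample labels call the cells brain tdTomato+ where the series' own description gives CD31+CD45-, and both are kept here as given.

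In this pathway Wnt7a and Wnt7b from neural cells and Norrin from glia reach endothelial cells and bind Frizzled receptors with the coreceptors Lrp5 and Lrp6. Reck and the adhesion receptor Adgra2 (Gpr124) make the receptor respond to Wnt7 ligands, and Tspan12 does so for Norrin at Fzd4. Receptor activation spares beta-catenin from its destruction complex, and beta-catenin then joins TCF/LEF factors on target genes. Among these targets are Axin2, Apcdd1, Nkd1 and Notum, each of which restrains the pathway that induces it.

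All 10 genes were lower in the tamoxifen libraries, with tamoxifen means between 14.3% (Fzd4) and 38.9% (Ctnnb1) of the control means. The limma fit over all tested genes called all 10 lower, at an adjusted p under 0.05 and a log2 fold change beyond 1 in size. Of all tested genes, 16.0% were called lower, 28.6% higher and 44.7% in either direction. Over the 10 genes the log2 fold change had a median of -2.09, beside 0.051 for all tested genes and -2.94 for 20 endothelial markers. Every one of the 10 had a log2 fold change closer to 0 than that endothelial median, a difference that was not tested. The 20 markers themselves ran from -3.43 (Emcn) to -1.79 (Ecscr), and of the 10 genes only Ctnnb1 lay outside that range. Ecscr stood apart from the other markers, with Kdr the next least changed at -2.75. Of the 10 genes only Fzd4 (-2.81) fell further than Kdr. In bulk RNA fewer cells of a type and less RNA per cell cannot be told apart.

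The promoters of 3 feedback inhibitors of the pathway are shown because they hold letters of the recognition site of TCF/LEF factors, which Lef1 and Tcf7 of the 10 genes encode. The letters CTTTGAA and CTTTGAT were searched on both strands in the 300 bases from 250 before to 50 after each start site. The start sites were those of canonical GENCODE M39 transcripts in GRCm39. At least 1 match lay in 1847 of 21770 protein-coding promoters (8.5%) and in 1 of the 10 promoters of the Wnt and Norrin genes, that of Axin2. Axin2, Nkd1 and Notum were picked for printing after the matches were seen. Capitals mark the match, which begins 22 bases before the start in Axin2, 26 in Nkd1 and 53 in Notum. The annotated genes of Axin2 and Nkd1 begin further upstream, at chr11:108811169 and chr8:89247890, so the matches in these genes lie inside the gene span. Axin2 (chr11:108811488-108811637, + strand) and Notum (chr11:120552020-120552169, - strand) are given as the 150 bases before the start, and Nkd1 (chr8:89247887-89247916, + strand) as 30 bases around the match.
Axin2: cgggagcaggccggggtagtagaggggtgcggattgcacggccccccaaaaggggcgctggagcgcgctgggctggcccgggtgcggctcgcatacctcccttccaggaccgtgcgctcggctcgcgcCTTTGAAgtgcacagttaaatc
Nkd1: cgtccgcctcgcCTTTGATgggccgctgcc
Notum: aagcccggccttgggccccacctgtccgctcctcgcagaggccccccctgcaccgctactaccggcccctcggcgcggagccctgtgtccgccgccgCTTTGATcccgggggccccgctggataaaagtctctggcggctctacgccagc
A match is a description of the letters in these windows and not evidence of binding. A promoter without one, such as that of Lef1, only lacks these letters in its window.

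Depth was similar across the 4 libraries, with 35387438 to 49799321 reads on genes recovered from the normalized counts. The normalized totals were not equal, at 5.13e+07 in each control library and 3.84e+07 and 3.58e+07 in tamoxifen libraries 1 and 2. Percents of control are given on this scale. With 2 libraries per group an exact permutation test of one gene cannot go below p = 0.333, so the calls rest on the spread shared over all genes, and replicate error here is that between pools of mice. For Mgp, the floxed gene, the normalized count was 1094 and 1352 under control and 945 and 909 under tamoxifen. This difference was not called (log2 fold change -0.39, SE 0.18, adjusted p = 0.0986) and was 0.079 with all libraries set to the same total. The counts cover the whole gene and not the floxed exons alone. The tamoxifen libraries also held many counts of pluripotency genes, a class the labels do not name for these cells. Whether they come from the sorted cells, from other cells or from an exchange of samples was not tested, and this doubt applies to every tamoxifen value. Tdgf1, for example, stood at 15.1 and 28.8 in control and at 11019 and 9229.9 in tamoxifen libraries. The marker lists are given in full after the results of the 10 genes.

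Fzd4, the Frizzled receptor that binds Norrin, fell to 14.3% of its control mean. It stood at 29001 and 20685 normalized counts in control libraries 1 and 2 and at 4253 and 2867 in tamoxifen libraries 1 and 2. The log2 fold change was -2.81 (SE 0.25, adjusted p = 8.71e-05). The control libraries differed from each other more for Fzd4 than for Lrp5, yet both stood far above the tamoxifen libraries. Lrp5, the coreceptor shared by Wnt and Norrin, had 14888 and 17326 in control and 5259.7 and 4091 in tamoxifen libraries (log2 fold change -1.79, SE 0.19, adjusted p = 0.000172). Tspan12, the tetraspanin that assists Norrin at Fzd4, stood at 2946 and 2267 in control and 689 and 686 in tamoxifen libraries. Its log2 fold change was -1.91 (SE 0.18, adjusted p = 0.000116), and its tamoxifen libraries were nearly equal. For all 3 genes of the Norrin receptor the groups did not overlap.

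Both genes of the pair that senses Wnt7 fell. Adgra2 had 24268 and 25239.7 normalized counts in control libraries and 7143 and 4718 in tamoxifen libraries, with a log2 fold change of -2.09 (SE 0.23, adjusted p = 0.000186). Reck, the membrane-anchored protein that binds Wnt7 together with Adgra2, had 4665 and 4446 in control and 1474 and 1117 in tamoxifen libraries. Its log2 fold change was -1.83 (SE 0.18, adjusted p = 0.000123). The control libraries agreed closely for both genes, and tamoxifen library 2 was the lowest of the 4 for each.

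Ctnnb1 encodes beta-catenin, which carries the signal to the nucleus and also anchors cadherins at cell junctions in most tissues. It changed least of the 10, from 58668 and 55742 in control to 24652 and 19867 in tamoxifen libraries. The log2 fold change was -1.37 (SE 0.24, adjusted p = 0.00192). The groups did not overlap, but this call depended on scaling. With all libraries set to the same total the log2 fold change was -0.90 (adjusted p = 0.00584), and under quantile normalization it was -0.49 (adjusted p = 0.0393), both inside the size limit of 1, so that 9 of the 10 genes were called lower under each. Among all tested genes, 1815 of 20668 were called lower with equal totals and 5509 of 20485 under quantile normalization.

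Of the DNA-binding partners of beta-catenin, Lef1 fell more than Tcf7 in the point estimates, and their difference was not tested. Lef1 stood at 13830.2 and 12542 in control libraries and at 2525 and 1534 in tamoxifen libraries (log2 fold change -2.74, SE 0.24, adjusted p = 8.04e-05). Tcf7 stood at 11081 and 12614 in control libraries and at 3497 and 2159.6 in tamoxifen libraries (log2 fold change -2.10, SE 0.24, adjusted p = 0.000217). Both were lowest in tamoxifen library 2, and neither gene's groups overlapped.

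Axin2 is a scaffold of the destruction complex and the most general readout of canonical Wnt signaling. It had 9716 and 12393 normalized counts in control libraries and 2701 and 2478 in tamoxifen libraries, with a log2 fold change of -2.08 (SE 0.18, adjusted p = 7.03e-05). Apcdd1, a membrane inhibitor of Wnt that brain and retinal endothelium express strongly, is measured with the most reads of the 10. It had 159989 and 181747 in control libraries and 43706 and 24052 in tamoxifen libraries. Its log2 fold change was -2.39 with the largest error of the 10 (SE 0.37, adjusted p = 0.00107), and under quantile normalization it was -1.18 (adjusted p = 0.0192). Neither target overlapped between groups, and the tamoxifen libraries were close together for Axin2 and apart for Apcdd1.

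**Figure D1:**
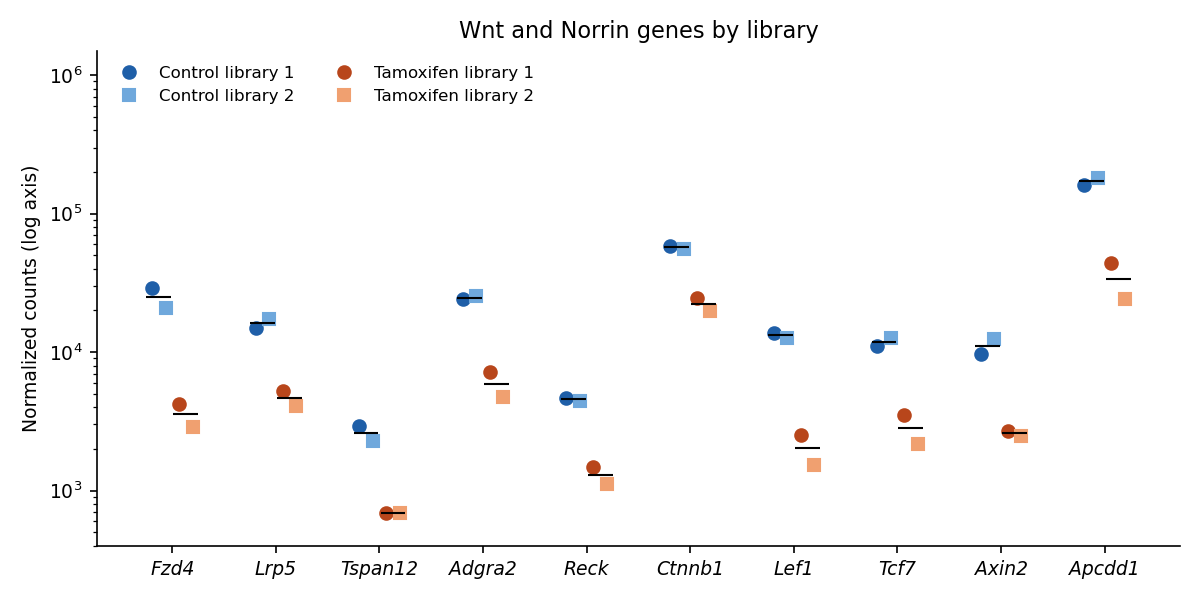
Normalized counts (y axis, log scale) of the 10 Wnt and Norrin genes (x axis) in each of the 4 libraries, with black lines at group means of 2 libraries. For every gene both tamoxifen points lie under both control points, from 689 and 686 for Tspan12 to 43706 and 24052 for Apcdd1.

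**Figure D2:**
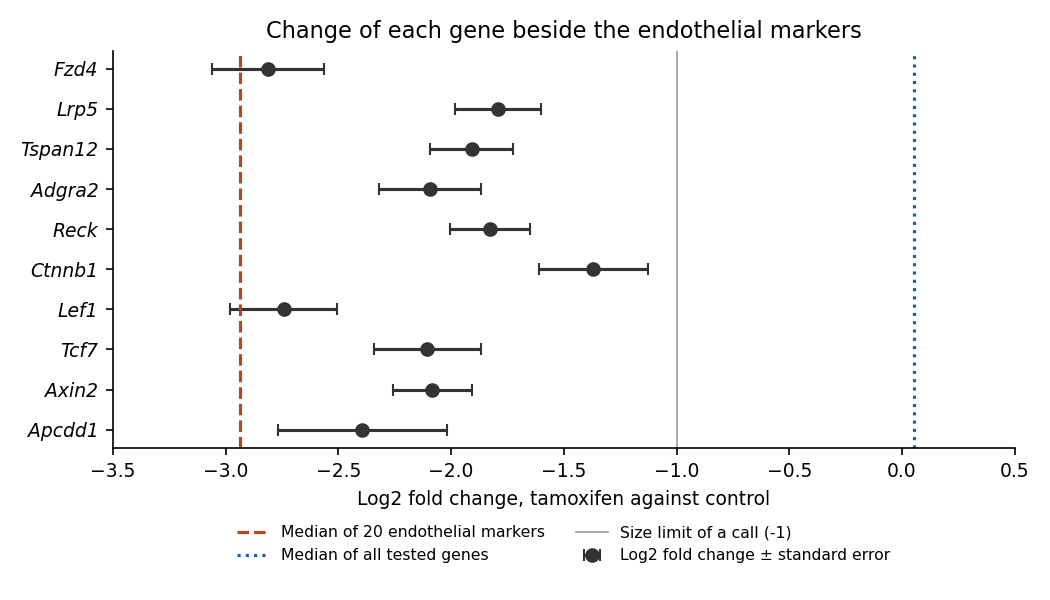
Log2 fold change of tamoxifen against control (x axis) with its standard error from limma for each gene (y axis), 2 libraries per group. Values run from -2.81 (Fzd4) to -1.37 (Ctnnb1) and lie between the median of 20 endothelial markers (-2.94, dashed) and that of all tested genes (0.051, dotted).

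No overlap between groups, with both tamoxifen libraries lower, was found in 10 of the 10 genes and in 39.2% of all tested genes. Leaving out any one library kept all 10 calls. The scale mattered more for size than for direction. With libraries set to the same total, the median of the 10 genes was -1.62 against 0.54 for all genes, and under quantile normalization it was -1.74 against -0.23.

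The tamoxifen libraries also differed from each other. All 10 genes were lower in tamoxifen library 2 than in library 1, as were 58.0% of all tested genes and all 20 endothelial markers. The ratio of library 2 to library 1 ran from 0.550 for Apcdd1 and 0.608 for Lef1 to 0.918 for Axin2 and 0.995 for Tspan12, beside 0.505 for the summed endothelial markers. In the control libraries 5 of the 10 genes were lower in library 2.

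The 10 genes were also set against the endothelial signal of each library. The endothelial sum over 20 markers was 1513487 and 1537125 under control and 262665 and 132769 under tamoxifen, so that the tamoxifen mean was 13.0% of control. Fzd4 moved with it, at 19.2 and 13.5 counts per 1000 endothelial counts in control and 16.2 and 21.6 in tamoxifen libraries, with overlapping groups. Lef1 stood at 9.14 and 8.16 in control and 9.61 and 11.6 in tamoxifen libraries on this scale, a ratio of group means of 1.22. The same ratio was 1.16 for Fzd4 and 1.55 for Apcdd1. It was 1.91 for Tcf7, 1.93 for Adgra2, 1.999 for Axin2, 2.28 for Tspan12, 2.35 for Reck and 2.41 for Lrp5. The 20 markers behind the sum ranged from 9.58% (Emcn) to 29.3% (Ecscr) of their control means, so the sum does not stand for each of them. Ecscr stood apart here too, with Icam2 next at 15.4%.

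Ctnnb1 departed most from the endothelial signal, at 38.8 and 36.3 per 1000 endothelial counts in control and 93.9 and 149.6 in tamoxifen libraries, a ratio of 3.25. In all, 9 of the 10 genes were higher on this scale in both tamoxifen libraries. Since 94.4% of all tested genes were too, this count says nothing particular about them, and most of the genes overlapped one another in their tamoxifen values relative to the control mean. No test was made of these ratios.

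**Figure D3:**
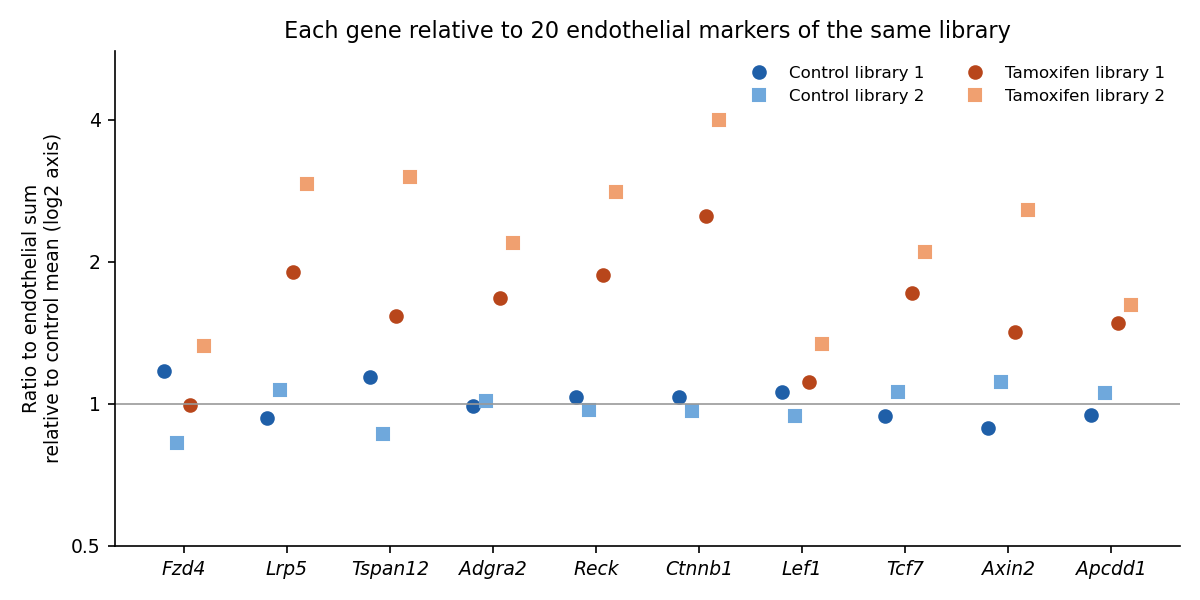
Each gene's normalized count divided by the summed counts of 20 endothelial markers in the same library, relative to the control mean (y axis, log2 scale), for the 10 genes (x axis) in 4 libraries. Fzd4 overlaps between groups with a ratio of 1.16, Lef1 stays near the control level at 1.22, and Ctnnb1 stands highest at 3.25.

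Per kilobase of the canonical transcript, the order of levels in the control libraries began with Ctnnb1 (15707 ± 568 counts per kilobase, SD, n = 2) and Apcdd1 (15706 ± 1414), which overlapped. Lef1 followed at 5175 ± 357, apart from both neighbours. Adgra2 (4216 ± 117), Fzd4 (3697 ± 875), Tcf7 (3408 ± 312) and Lrp5 (3116 ± 334) formed a run in which each overlapped the next. Axin2 came after them at 2497 ± 428 and apart from its neighbours, ahead of Reck (1024 ± 34.9) and Tspan12 (1006 ± 185), which overlapped.

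In the tamoxifen libraries the per-kilobase order was Ctnnb1 (6112 ± 929), Apcdd1 (3114 ± 1277), Adgra2 (1010.0 ± 292), Lrp5 (905 ± 160), Tcf7 (814 ± 272), Lef1 (797 ± 275), Axin2 (585 ± 35.6), Fzd4 (529.7 ± 146), Reck (291 ± 56.7) and Tspan12 (265 ± 0.945). Ctnnb1 and Apcdd1 were each apart from the gene after them. From Adgra2 to Fzd4 every neighbour overlapped, so that the places of Lef1 and Fzd4 below Lrp5 and Tcf7 were not separated step by step. Fzd4 was apart from Reck, and Reck overlapped Tspan12.

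The make-up of the receptor and factor families differed between groups as well. These families were set beside the 10 genes after their values were seen, and their shares carry no test. Of the per-kilobase counts of the 10 Frizzled genes, Fzd4 held 38.9% and 33.8% in control libraries and 14.4% and 10.3% in tamoxifen libraries. Together with Fzd6 it held 95.1% and 93.2% in control and 45.2% and 29.0% in tamoxifen libraries. In the tamoxifen libraries Fzd2 (10.5% and 14.4%), Fzd7 (13.5% and 14.2%), Fzd1 (9.57% and 13.2%) and Fzd10 (6.71% and 10.97%) took much of the rest, where none of them passed 2.78% in a control library.

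Among the 4 TCF/LEF factors, Lef1 and Tcf7 together made up 90.8% and 90.2% of the per-kilobase counts in control and 65.4% and 59.2% in tamoxifen libraries. Tcf7l1 held 5.42% and 6.76% in control and 25.8% and 28.3% in tamoxifen libraries, although its own level was not called (514 and 640.3 counts per kilobase in control, 787 and 585 in tamoxifen libraries). Axin2 made up 78.4% and 80.1% of the 2 Axin genes in control and 43.8% and 46.3% in tamoxifen libraries. Lrp5 kept a more even share against Lrp6, with 68.6% and 75.6% in control and 64.4% and 60.1% in tamoxifen libraries.

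**Figure D4:**
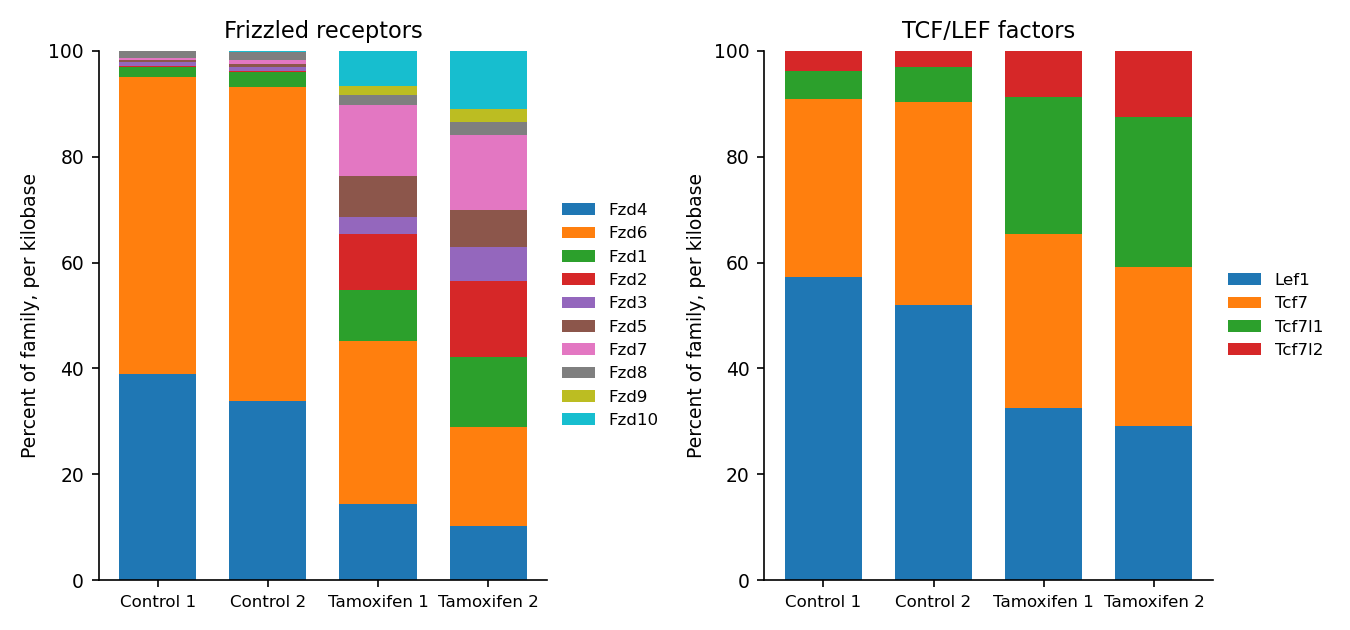
Share of each gene in the per-kilobase normalized counts of its family (y axis, percent) in the 4 libraries (x axis), for the 10 Frizzled receptors on the left and the 4 TCF/LEF factors on the right. Fzd4 and Fzd6 fill 95.1% and 93.2% of the control bars and 45.2% and 29.0% of the tamoxifen bars, and Lef1 with Tcf7 go from 90.8% and 90.2% to 65.4% and 59.2%.

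The wider pathway did not move as the 10 genes did. Of 109 further genes in 8 lists, 104 were listed and 97 tested, of which 40 were called higher, 20 lower and 37 not called. With all libraries set to the same total 41 were called higher and 16 lower, and under quantile normalization 33 and 23.

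Wnt and Norrin ligands lay mainly on the higher side, with 8 of 13 tested called higher, the other 5 not called and a median log2 fold change of 2.96. With genes at or under 3 reads in both control libraries set to their lower bound the median was 2.38. Under quantile normalization 7 were called higher and 2 lower, with a median of 1.77. Wnt7a, the ligand sensed through Reck and Adgra2, had 34.2 and 47.6 normalized counts in control libraries and 486 and 1054 in tamoxifen libraries (log2 fold change 4.11, SE 0.44, adjusted p = 0.000178). Wnt7b had 54.8 and 92.6 in control and 621 and 1061 in tamoxifen libraries (log2 fold change 3.49, SE 0.39, adjusted p = 0.000207). Both ligands were higher in the libraries where Reck, Adgra2, Fzd4 and Lrp5 were lower, although 10 of 14 other receptors and coreceptors were called higher. Ndp, which encodes Norrin and is named as the ligand of Fzd4, stood at 24.7 and 42.6 in control and at 249 and 495 in tamoxifen libraries (log2 fold change 3.40, SE 0.49, adjusted p = 0.000726).

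Among 14 other receptors and coreceptors, 10 were called higher and 2 lower, with a median of 2.13. The genes called lower were Fzd6, which with Fzd4 made up most of the Frizzled counts in control, and Lrp6, the relative of Lrp5. Fzd6 had 26921 and 23382 in control and 5854 and 3370.2 in tamoxifen libraries (log2 fold change -2.50, SE 0.27, adjusted p = 0.000173). Lrp6 had 12786 and 10505 in control and 5463 and 5092 in tamoxifen libraries (log2 fold change -1.14, SE 0.17, adjusted p = 0.000915), and it was not called with libraries set to the same total (-0.67), under quantile normalization (-0.64) or without control library 1 (-0.99). On the other side stood Fzd2, at 54.8 and 92.6 in control and 1696 and 2193 in tamoxifen libraries (log2 fold change 4.74, SE 0.31, adjusted p = 2.78e-05). Fzd10 (log2 fold change 5.33, SE 0.57) and Ror2 (3.84, SE 0.34), a receptor for non-canonical Wnts, were called higher too, although Fzd10 lost its call without tamoxifen library 2 (adjusted p = 0.0617).

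R-spondins and Lgr receptors hold Wnt receptors at the surface by removing ubiquitin ligases, and these ligases are in the same list. The list had 6 of 8 tested genes called higher (median 2.54), and 4 of 8 under quantile normalization (median 1.40). As deposited, the 2 genes not called were the ligases Rnf43 (log2 fold change 1.19, SE 0.60) and Znrf3 (-0.67, SE 0.22). The Lgr receptors led, with Lgr4 at 271 and 262 in control and 2458 and 3106 in tamoxifen libraries (log2 fold change 3.37, SE 0.19, adjusted p = 1.49e-05), and Lgr6 with a log2 fold change of 3.84 (SE 0.47). Secreted and surface inhibitors had 10 of 14 called higher and 1 lower (median 2.79). Sfrp1, a decoy that binds Wnts, stood at 34.2 and 52.6 in control and 1935 and 2871 in tamoxifen libraries (log2 fold change 5.76, SE 0.32, adjusted p = 1.36e-05). Draxin (5.29, SE 0.39) and Frzb (2.88, SE 0.27) were also called higher.

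The inhibitor called lower was Notum, a secreted enzyme that strips the lipid from Wnt proteins and whose promoter is printed above. It had 6828 and 7522 normalized counts in control and 2134 and 895 in tamoxifen libraries (log2 fold change -2.37, SE 0.35, adjusted p = 0.000831). Notum also stood in the list of general Wnt targets, of which 4 of 13 were called higher and 3 lower. The other targets called lower were Nkd1, an inhibitor of Dishevelled, and Bambi, a pseudoreceptor for transforming growth factor beta. Nkd1 had 19895 and 21636 in control and 5539 and 3215 in tamoxifen libraries (log2 fold change -2.30, SE 0.26, adjusted p = 0.000216), and Bambi had a log2 fold change of -1.47 (SE 0.17). The 3 genes with printed promoters were called lower, as were Foxf2, Sox17, Tle1 and Lrp6, whose promoters hold the searched letters too. The letters did not go with a single direction. Promoters of Ccnd1, Cdx1 and Wnt8a, which were called higher, also hold them, as do those of Sp5 and Tcf7l1, which were not called. The 4 targets called higher were Myc, Ccnd1, Cdx1 and Lgr5, with Myc at 219 and 280.4 in control and 1480.5 and 1379.6 in tamoxifen libraries (log2 fold change 2.52, SE 0.22, adjusted p = 7.54e-05) and Ccnd1 at a log2 fold change of 1.13 (SE 0.19). Ccnd1 was not called without tamoxifen library 1 (0.92). Lgr5 had a log2 fold change of 4.15 (SE 1.00), from only 8.22 and 0 normalized counts in control and 55.3 and 50.3 in tamoxifen libraries. Cdx1, at or under 3 reads in both control libraries, was at least 42.5-fold higher. The list's median was 0.37, and -0.51 under quantile normalization.

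Most genes of the intracellular machinery were not called. In the list of Dishevelled and destruction complex genes 12 of 15 were not called, 2 were called higher (Apc2, log2 fold change 3.69, SE 0.35, and Dvl2, 1.27, SE 0.19) and 1 lower (Dvl1, -1.20, SE 0.15). The median was -0.048, and 0.42 with libraries set to the same total and 0.32 under quantile normalization. Dvl1 was not called under either of these scalings (-0.73 and -0.91). In the list of TCF factors and nuclear partners 8 of 11 were not called. Pygo1 was called higher (3.24, SE 0.31), and Tle1, a corepressor (-1.42, SE 0.15), and Ctnnbip1, an inhibitor of beta-catenin (-1.34, SE 0.18), were called lower but not with libraries set to the same total (-0.95 and -0.87). The median of -0.25 was 0.22 and 0.0155 under the same scalings.

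Barrier genes linked to Wnt signaling were lower, as both the 10 genes and the endothelial markers were, with 12 of 13 called lower and a median of -2.51. That median lay between those of the 10 genes (-2.09) and the 20 endothelial markers (-2.94), which were all called lower. Of all tested genes, 16.0% were called lower. Abcb1a, the drug efflux pump, had 109592 and 102653 normalized counts in control and 15917 and 6305 in tamoxifen libraries (log2 fold change -3.40, SE 0.41, adjusted p = 0.000288). Cldn5, the main claudin of endothelial tight junctions, had 135059.7 and 134934 in control and 26217 and 11392 in tamoxifen libraries (log2 fold change -2.97, SE 0.40, adjusted p = 0.000501). Foxl2, a forkhead factor, had a log2 fold change of -3.07 (SE 0.26). The gene not called was Tnfrsf21 (-0.072, SE 0.16), a death receptor that is also expressed outside vessels and is named as the exception.

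**Figure D5:**
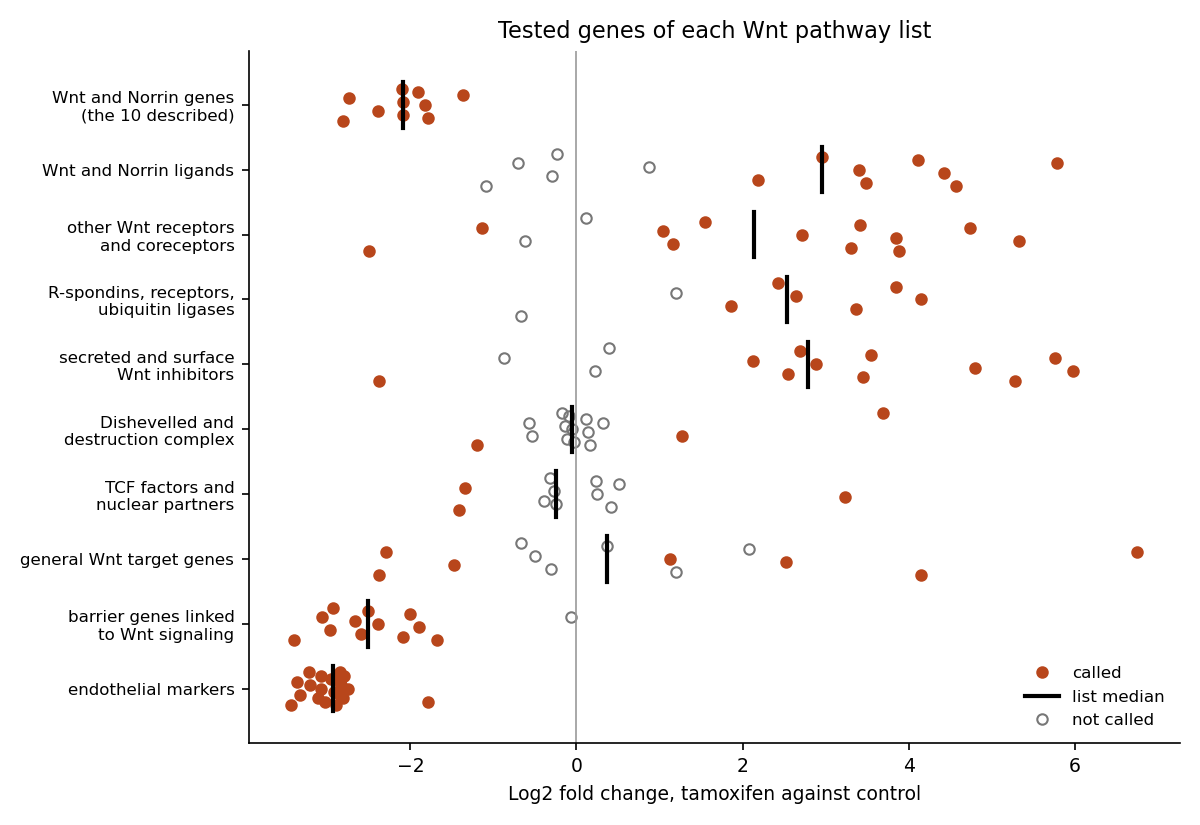
Log2 fold change of tamoxifen against control (x axis) for each tested gene of the 10 Wnt and Norrin genes, the 8 other pathway lists and the endothelial markers (y axis), with filled points called, open points not called and a bar at each list's median. Medians run from 2.96 for ligands to -2.51 for barrier genes and -2.94 for endothelial markers, and genes at or under 3 reads in both control libraries are drawn at their fitted value, which is no bound.

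Markers of other cell types differed between the same libraries, and their part in the changes of the 10 genes was not tested. Endothelial markers were called lower in 20 of 20, led in counts by Flt1 (log2 fold change -3.33, SE 0.44) and Ptprb (-3.11, SE 0.41). None of them reached 0, and Pecam1, the gene of CD31, stood at 83681 and 88796 in control and 15987 and 8973 in tamoxifen libraries. Cdh5, whose promoter drives the recombinase, had a log2 fold change of -2.84 (SE 0.31). Pericyte markers were called higher in 4 of 10, with summed counts of 35309 and 66181 in control and 50732 and 95439 in tamoxifen libraries that overlapped. Rgs5 (0.0094, SE 0.38) and Vtn (0.36, SE 0.41), which had the most counts of them, were not called.

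Astrocyte markers were called higher in 10 of 10, with sums of 31745 and 37988 in control and 160728 and 330743.5 in tamoxifen libraries, led by Slc1a2 (log2 fold change 2.87, SE 0.42) and Slc1a3 (3.73, SE 0.35). Astrocytes are a source of Norrin. Oligodendrocyte precursor markers were called higher in 7 of 8 and lower in 1 (Gpr17), with sums of 4729.7 and 4462 in control and 29675 and 62331 in tamoxifen libraries, led by Ptprz1 (3.79, SE 0.40) and Cspg5 (3.63, SE 0.38). The sums of both lists were higher in tamoxifen library 2 than in library 1, the reverse of the 10 genes. Not every gene followed its sum, with Pdgfra of the precursor list at 3733 and 3405 in tamoxifen libraries 1 and 2. Fibroblast markers were called higher in 10 of 10, with sums of 2563 and 3589.6 in control and 74000.4 and 64017 in tamoxifen libraries, led by Col1a1 (5.95, SE 0.20) and Col1a2 (4.29, SE 0.22). Dpt of this list had 0 reads in both control libraries.

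Lymphocyte markers were called higher in all 7 tested of 10, with sums of 78.1 and 111 in control and 2811 and 2099 in tamoxifen libraries, although the gate excludes CD45, led by Cd79b (5.95, SE 0.39) and Cd79a (4.75, SE 0.38). Pluripotency markers were called higher in 12 of 12, with sums of 112 and 176 in control and 60647 and 47181 in tamoxifen libraries, led by Tdgf1 (8.85, SE 0.32) and Dppa5a (8.51, SE 0.33). Cell cycle genes were called higher in 10 of 10, with sums of 1787.5 and 2129 in control and 104439 and 100224 in tamoxifen libraries, led by Mki67 (6.37, SE 0.17) and Top2a (6.71, SE 0.20). Counts of the pathway lists above come from the same bulk libraries and cannot be assigned to a cell type.

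In GRCm39 the receptor genes lie at chr7:89053563-89062342 (Fzd4, + strand), chr19:3634821-3736643 (Lrp5, - strand), chr6:21771389-21852619 (Tspan12, - strand), chr8:27575514-27613464 (Adgra2, + strand) and chr4:43875514-43944806 (Reck, + strand). Ctnnb1 lies at chr9:120757422-120789579 (+ strand), Lef1 at chr3:130903919-131018005 (+ strand), Tcf7 at chr11:52143107-52174619 (- strand), Axin2 at chr11:108811169-108841609 (+ strand) and Apcdd1 at chr18:63055302-63094250 (+ strand). Counts cover whole genes. Listed genes overlap Adgra2, Ctnnb1, Lef1, Tcf7 and Axin2, and since the strand setting of the counting is not given, shared reads between such partners cannot be told apart. None of these partners passed 625 normalized counts in any library.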

How the data were processed

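The authors prepared stranded mRNA-Seq libraries from pooled CD31+CD45- cerebral cells, aligned the reads to GRCm39 (STAR 2.7.10a), dropped low-count genes and applied the normalization of DESeq2 1.36.0. The annotation, strand setting and low-count limit are not given in the sources used here. What was deposited is a normalized signal for each gene, in which the authors scaled all reads of a library by 1 factor. Dividing each column by its smallest step returned whole reads for 100% of values (within 0.01). Columns lettered A were taken as the tamoxifen group because the others match the control titles, and the letter is in no label. Which treated sample each of them is was not given, and the numbers 1 and 2 come from the column names.

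Values were tested with limma 3.58.1 (lmFit, eBayes with trend, R 4.3.3) on log2(value + 1) over genes with a mean of at least 10, with Benjamini-Hochberg adjustment over all of them and no covariate. The script was tested on simulated data. Alternatives were a pseudocount of 0.5 or 5, no filter or one at 100, equal totals, quantile normalization, no trend, a replicate block, adjusted p alone, each library left out, and the recovered reads tested with edgeR 4.0.16 or DESeq2 1.42.0. Limits at 3 reads cover counting error only. Locations and transcript lengths came from GENCODE M39. The Wnt and Norrin genes and every list were chosen with earlier results of these data known. Named genes were the 10, Mgp, Pecam1 and Cdh5, up to 3 called genes per direction with a group mean of at least 500 from each pathway list, and the 2 most abundant of each marker list. Ndp, Tnfrsf21, Dpt, Gpr17, Tcf7l1, the other Frizzled genes and genes overlapping the 10 were named outside that rule after values were seen. So were Cdx1, Lgr5, Wnt8a, Sp5, Foxf2, Sox17, Emcn, Ecscr, Kdr, Icam2, Rnf43, Znrf3 and Pdgfra.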

Additional observations from a re-analysis of the deposited data

How the results depend on the processing

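Each library left out in turn gave 10 of 10 Wnt and Norrin genes called lower, 44 to 63 of the pathway genes called (60 with all libraries) and 4979 to 10001 of all genes called (9151 with all). The lowest counts came without tamoxifen replicate 2 (4979) and without tamoxifen replicate 1 (5811), where the lone library was assumed to vary like the others. A filter at a mean of 100 tested 13668 genes and called 5934. The direction split depended on scaling, with 5867 genes called higher and 3284 lower as deposited, 7393 and 1815 with equal totals and 4615 and 5509 under quantile normalization. These scalings moved the median of all genes by 0.48 and -0.28, and removing the filter by 0.12. Signs turned for Rgs5 (-0.35 without control replicate 1, -0.52 without tamoxifen replicate 2, in a range of -0.52 to 0.54 with any library left out), Vtn (-0.21 and -0.077, in a range of -0.21 to 0.93) and Mgp (0.079, equal totals). Same-numbered libraries did not deviate together (r = 0.025 across 20485 genes, which are not independent), and with a replicate block 9525 genes, 61 pathway genes and all 10 were called. By edgeR 9241 and by DESeq2 8739 genes were called, with all 10 lower in both. The cause of these changes was not tested beyond the number of genes or libraries left.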

Other observations

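Listed genes overlap 5 of the Wnt and Norrin genes and were named for that overlap alone. Because the strand setting of the counting is not given, their counts may include reads of the larger partner and are no independent readout. At the Lef1 locus, the opposite-strand noncoding gene Lef1os1 had 118 and 140.2 normalized counts in control libraries and 18.4 and 15.8 in tamoxifen libraries (log2 fold change -2.84, SE 0.48, adjusted p = 0.00165, limma). The same-strand Gm42449 had a log2 fold change of -2.46 (SE 0.68). Across from Tcf7, A630014C17Rik had 133 and 125 in control and 21.7 and 25.2 in tamoxifen libraries (log2 fold change -2.42, SE 0.46, adjusted p = 0.00297). Across from Axin2, Gm11670 had a log2 fold change of -1.92 (SE 0.63). All 4 noncoding genes were called lower, as their partners were.

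The protein-coding partners did not follow. Brf2, a transcription factor subunit across from Adgra2, had 618 and 625 normalized counts in control and 546 and 491 in tamoxifen libraries and was not called (log2 fold change -0.26, SE 0.20, adjusted p = 0.292). Ulk4, across from Ctnnb1, was called higher, at 53.4 and 47.6 in control and 301 and 469 in tamoxifen libraries (log2 fold change 2.87, SE 0.38, adjusted p = 0.000468).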
